A study of Mus musculus with 10 samples.

Results

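Eph receptors are membrane tyrosine kinases, and ephrins are the ligands they meet on the surface of a neighbouring cell. A-type ephrins are held to the membrane by a glycosylphosphatidylinositol anchor and B-type ephrins cross it, so that a contact can signal into both cells, guiding cell sorting, boundary formation and axon growth. EphA4 is unusual among the receptors in binding ephrins of both types. Transcript levels of 10 of these genes were followed in mouse embryonic stem cells (ESCs) depleted of Wapal, the factor that releases cohesin from chromatin, or of Smc3, a subunit of the cohesin ring itself: the receptors Epha1, Epha2, Epha4, Epha7, Ephb2 and Ephb4 and the ligands Efna1, Efna3, Efnb1 and Efnb2. The probe sets were those whose single gene symbol in the platform annotation was one of these names, which gave 25 of 45037 probe sets and 9 of the 10 genes, out of 18193 genes with a probe set of their own. Ephb2 was the symbol of no probe set and was not analysed here. The genes were selected on measured values, with results of these same arrays known, so their changes below are a description, and the adjusted p-values, which come from the model of the complete table, support nothing about the choice. The 12 other receptors and ephrins, all of them measured, are given beside them.

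The cells were CJ9 ESCs, a line derived from 129SvJ mice. All groups were infected with lentivirus for 48 h in polybrene at 10 mcg/mL, given medium with LIF and puromycin at 4 mcg/mL, and cultured for 48 h post infection. Controls carried the empty vector (pLKO.1), and the other 4 groups carried Wapal shRNA1, Wapal shRNA2, Smc3 shRNA1 or Smc3 shRNA2, with 2 biological replicates per group and 1 Affymetrix mouse genome array for each, or 10 arrays in all. Whether the replicates were separate infections is not given in the sources used here, so the p-values here reflect just the spread among these samples. Infected cells were selected as a population, not cloned.

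The targeted transcripts checked the labels. On its brightest probe set, Wapal RNA (symbol Wapl in the reference) read 2500 and 2648 in empty vector. It read 929 and 1005 for Wapal shRNA1 and 235 and 217 for Wapal shRNA2, a loss of 62.5% and 91.2% respectively. On 1434778_at the losses were 61.3% and 89.6%. On 1442426_at, with a mean log2 intensity of 7.03, the log2 changes were 0.41 and -0.36, neither passing in limma (adjusted p = 0.328 and 0.366). The remaining 1457320_at and 1440951_x_at, with mean log2 intensities of 3.71 and 2.83, changed by 0.01 and -0.09 with Wapal depletion, neither passing. Smc3 RNA on its brightest probe set read 1536 and 1555 in empty vector and between 176 and 223 after either Smc3 hairpin, a mean loss of 87.5%. On its second probe set, 1450951_at, the mean loss was 57.5%. A supplementary table of the study exchanges the names of Wapal shRNA1 replicate 2 and Wapal shRNA2 replicate 1, and the Wapal levels above follow the deposited labels. All 8 ESC markers were well detected, with a summed intensity of 56599 to 67884 on the 10 arrays, although Nanog, Zfp42 and Esrrb fell with Smc3 depletion and Esrrb with Wapal depletion. Of the markers of other cell types, 8 of 9 for fibroblast feeders, 6 of 6 for endoderm, 4 of 4 measured for mesoderm, 3 of 5 for ectoderm and 4 of 6 for trophectoderm lay under a mean log2 intensity of 6, here called dim because such signals sit near background. The fibroblast list summed to 324 and 375 in empty vector, 251 to 302 with the Wapal shRNAs and 266 to 338 with the Smc3 shRNAs. The trophectoderm list summed to 343 and 524 in empty vector, 260 to 352 with the Wapal shRNAs, 311 and 342 for the first Smc3 hairpin and 206 and 212 for the second, and the ectoderm list to 375 and 384 in empty vector, 248 to 365 with the Wapal shRNAs and 278 to 295 with the Smc3 shRNAs. Single markers passed in both depletions (Tubb3 at -1.30 and -1.10, Thy1 at -0.65 and -0.92, Dcn at 0.48 and 0.52, Pdgfrb at -0.68 and 0.57, Wapal first), and Tfap2c fell with Smc3 depletion (-1.90). The part of these markers in the results below was not tested. The arrays also fell into 2 sides that the values show and the labels do not: empty vector replicate 1, Wapal shRNA1 and Smc3 shRNA2 on one, empty vector replicate 2, Wapal shRNA2 and Smc3 shRNA1 on the other. Comparisons of both shRNAs with empty vector cross this split, whereas shRNA1 against shRNA2 runs along it.

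Against the empty vector, Epha4 fell and Efnb2 rose in both depletions. Ephb4 passed with Wapal depletion, and Epha1 and Epha2 with Smc3 depletion. Of the 9 genes measured, 2 rose (Efnb2 and Ephb4) and 1 fell (Epha4) with Wapal depletion, where 2.63% of all genes rose and 4.93% fell at an adjusted p under 0.05. With Smc3 depletion 3 rose (Efnb2, Epha1 and Epha2) and 1 fell (Epha4), where 6.08% of all genes rose and 3.94% fell. Nothing is read from these counts, because the genes were picked with such values known. The median change of the 9 genes was -0.01 with Wapal depletion and 0.24 with Smc3 depletion, on the log2 intensity scale, beside a median of 0.01 over all genes in each. Both comparisons share the 2 empty vector arrays. In whole cultures, fewer cells of a type and less RNA per cell cannot be told apart.

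**Figure D1:**
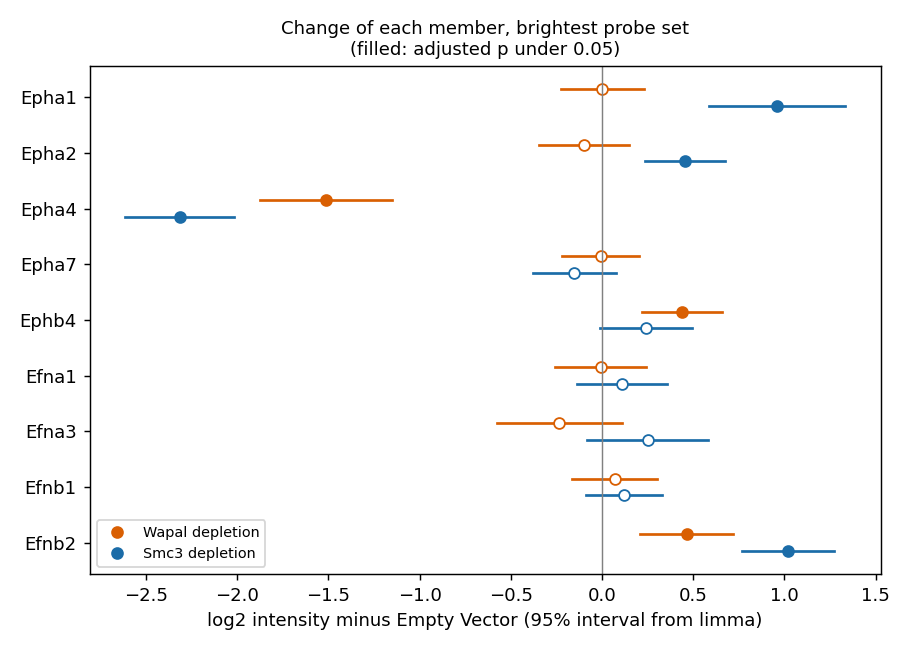
Difference in log2 intensity from empty vector (x axis) for the 9 measured genes (y axis), with limma's 95% interval, orange for Wapal depletion and blue for Smc3 depletion (4 shRNA arrays against 2 empty vector arrays each); filled points had an adjusted p under 0.05. Epha4 lies far to the left in both, at -1.51 and -2.31, and Efnb2 to the right in both, at 0.46 and 1.02.

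The upstream DNA of 3 of the genes that moved is shown for context: Epha4, which fell, and Efnb2 and Epha2, which rose. The sequences are from RefSeq on GRCm38.p6, read 5′ to 3′ on the gene's own strand, and end at the last base before the annotated gene. Capitals mark a GC box (GGGCGG, or CCGCCC when it lies on the other strand), a CCAAT box (CCAAT or ATTGG) or the cAMP response element TGACGTCA. The Epha4 stretch of 231 bases lies at chr1:77515108-77515338 on the minus strand, the Efnb2 stretch of 250 bases at chr8:8661243-8661492 on the minus strand, and the Epha2 stretch of 250 bases at chr4:141300971-141301220 on the plus strand.
Epha4: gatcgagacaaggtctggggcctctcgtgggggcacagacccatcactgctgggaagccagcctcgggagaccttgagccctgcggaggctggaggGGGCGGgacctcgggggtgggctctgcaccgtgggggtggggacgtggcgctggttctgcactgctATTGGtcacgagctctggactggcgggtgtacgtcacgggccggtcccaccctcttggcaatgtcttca
Efnb2: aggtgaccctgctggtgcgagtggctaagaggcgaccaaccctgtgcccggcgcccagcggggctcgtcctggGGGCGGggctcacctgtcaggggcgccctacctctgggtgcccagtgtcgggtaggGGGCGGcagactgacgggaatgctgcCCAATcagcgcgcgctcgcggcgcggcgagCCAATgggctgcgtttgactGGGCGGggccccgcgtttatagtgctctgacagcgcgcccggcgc
Epha2: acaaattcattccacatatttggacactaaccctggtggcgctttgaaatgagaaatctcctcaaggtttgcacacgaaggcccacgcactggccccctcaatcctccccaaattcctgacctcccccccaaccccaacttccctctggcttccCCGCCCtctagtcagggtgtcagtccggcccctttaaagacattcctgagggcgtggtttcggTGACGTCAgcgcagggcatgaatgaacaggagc
Efnb2 held 3 GC boxes and 2 CCAAT boxes, Epha4 1 of each, and Epha2 1 GC box and 1 cAMP response element. Over the 250 bases before the start of each of the 32851 promoters in the same table, 32.7% held a GC box, 33.9% a CCAAT box and 1.55% a cAMP response element, each searched on both strands. GC content over 250 bases was 72.0% for Efnb2, 66.0% for Epha4 and 55.6% for Epha2, beside a median of 52.4%. A match is only a match of letters, and the arrays measured no binding there.

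Epha4 was the receptor with the greatest change of the 9 genes in both depletions. Its brightest probe set, 1429021_at, read 562 and 413 in empty vector, 157 and 175 for Wapal shRNA1, 198 and 150 for Wapal shRNA2, 78.4 and 83.1 for Smc3 shRNA1, and 121 and 112 for Smc3 shRNA2. On this probe set the 3 conditions did not overlap: empty vector was highest, Wapal depletion was between, and Smc3 depletion was lowest. The log2 change was -1.51 ± 0.16 (standard error) with Wapal depletion, a 2.85-fold change and a loss of 65.0% (adjusted p = 0.00486). It was -2.31 ± 0.13 with Smc3 depletion, a 4.97-fold change and a loss of 79.9% (adjusted p = 0.000117). The direct comparison of the depletions, which uses no empty vector array for its means, put Wapal-depleted cells 0.80 ± 0.12 higher (adjusted p = 0.00112).

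Every Epha4 probe set fell in both depletions. On 1421929_at, 1421928_at, 1439757_s_at and the dim 1456863_at the change was -1.11, -0.95, -1.53 and -0.96 with Wapal depletion and -1.70, -1.37, -2.10 and -0.99 with Smc3 depletion. The gap between depletions was the same in sign on all 5, but on 1421928_at (0.42, adjusted p = 0.0765) and 1456863_at (0.03, adjusted p = 0.828) it did not pass the test. The Wapal and Smc3 arrays overlapped on 1421928_at, 1439757_s_at and 1456863_at, but not on 1421929_at. The empty vector replicates themselves differed by -0.45 in log2 (replicate 2 minus replicate 1) on the brightest probe set. Within the sides of the array split, Epha4 changed by -1.76 and -1.26 with the Wapal shRNAs and by -2.27 and -2.35 with the Smc3 shRNAs, each pair of arrays set against 1 empty vector array.

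**Figure D2:**
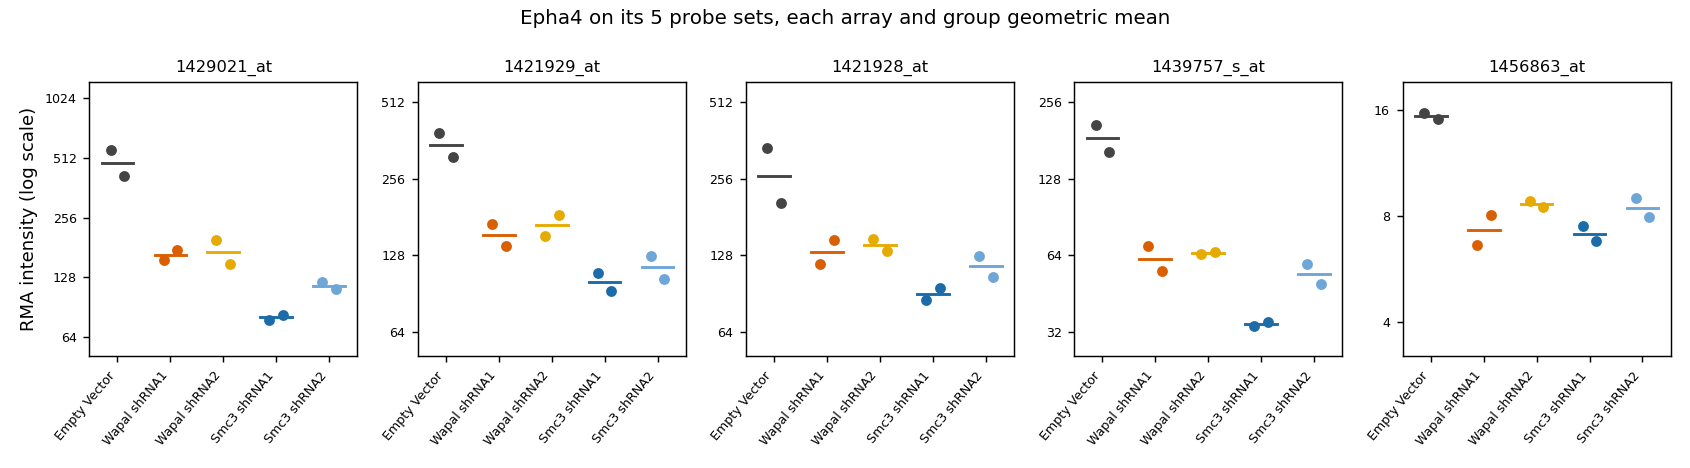
RMA intensity of Epha4 (y axis, log scale, different range in each panel) on its 5 probe sets in the 5 groups (x axis); points are the 2 arrays of a group and lines their geometric mean. In every panel both empty vector points lie above all 8 shRNA points, and 1456863_at, whose readings stay under 16, is close to background.

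The hairpins to 1 gene can also be set side by side. On the brightest probe set of Wapal, shRNA1 left more RNA than shRNA2, the 2 hairpins differing by 2.10 in log2 (adjusted p = 0.00153). Epha4 changed by -1.54 with the first hairpin and -1.48 with the second. Their difference in Epha4 was -0.06, with a 95% interval of -0.47 to 0.36. This comparison runs along the split of the arrays, and within the sides the changes were further apart, -1.76 with shRNA1 and -1.26 with shRNA2, each against 1 empty vector array. The Smc3 hairpins lowered Smc3 by 88.3% and 86.7% on its brightest probe set and gave Epha4 changes of -2.58 and -2.05. The difference between these Epha4 changes, -0.53 (95% interval -0.87 to -0.18), did not pass after adjustment (adjusted p = 0.0653). On 1439757_s_at the Smc3 hairpins differed by -0.66 and passed (adjusted p = 0.0270), and on the other 3 probe sets they did not. The mean log2 intensity of 1439757_s_at, 6.07, was just over the dim limit of 6, with empty vector at 7.71 and 7.35. All its Smc3 arrays lay under that limit, at 5.07 and 5.12 with shRNA1 and 5.88 and 5.63 with shRNA2. The size of this hairpin difference is therefore uncertain. The gap on the brightest runs along the split of the arrays and has the sign of the gap between the empty vector replicates, and within the sides the Smc3 values above, -2.27 and -2.35, lay close together. On 1439757_s_at they were -1.95 with shRNA2 and -2.25 with shRNA1.

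Efnb2, a transmembrane B-type ephrin that binds EphB4 and EphA4 among others, moved the opposite way. Probe set 1419639_at read 102 and 103 in empty vector, 123 and 149 for Wapal shRNA1, 157 and 138 for Wapal shRNA2, 181 and 192 for Smc3 shRNA1, and 258 and 208 for Smc3 shRNA2. Here too the 3 conditions did not overlap, with empty vector lowest and Smc3 depletion highest. Smc3 depletion raised Efnb2 by 1.02 ± 0.11 in log2, or 2.03-fold (adjusted p = 0.00173), and both hairpins did so on their own (0.86 and 1.18, adjusted p = 0.00552 and 0.00200). The Wapal change was smaller, 0.46 ± 0.11 or 1.38-fold (adjusted p = 0.0485), and it no longer passed when any 1 of the 6 arrays was left out (adjusted p from 0.0674 to 0.157). Efnb2 was lower with Wapal than with Smc3 depletion (log2 difference -0.56 ± 0.09, adjusted p = 0.00281). The second probe set, 1419638_at, was dim and rose with Smc3 depletion by 0.83 (adjusted p = 0.00728), while its Wapal change of 0.32 did not pass (adjusted p = 0.111). The other 2 probe sets, 1449548_at and 1449549_at, were dimmer and changed by 0.14 and 0.00 with Wapal depletion and by 0.07 and -0.10 with Smc3 depletion, none of them passing. As the mean over the 4 probe sets, Efnb2 changed by 0.23 with Wapal depletion (adjusted p = 0.0943) and by 0.46 with Smc3 depletion (adjusted p = 0.00951).

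Epha1, an A-type receptor, rose with Smc3 depletion on 1 of its probe sets. It was dim on all 3 of its probe sets, and 1422917_at read 31.4 and 28.8 in empty vector, 30.8 and 28.1 for Wapal shRNA1, 32.6 and 29.3 for Wapal shRNA2, 42.7 and 65.4 for Smc3 shRNA1, and 60.5 and 69.1 for Smc3 shRNA2. The 4 Smc3 arrays lay above all 6 others, whereas the Wapal arrays overlapped empty vector. The change was 0.96 ± 0.16 with Smc3 depletion (adjusted p = 0.0108) and 0.00 ± 0.10 with Wapal depletion (95% interval -0.23 to 0.23). Wapal-depleted cells differed from Smc3-depleted cells by -0.95 ± 0.12 (adjusted p = 0.000566). The remaining probe sets, 1432399_a_at and 1432400_at, changed by 0.28 and 0.15 with Smc3 depletion and did not pass, and without Smc3 shRNA2 replicate 2 the Smc3 call on 1422917_at was lost (adjusted p = 0.0545). With readings this near background, the size of the rise is uncertain, and as the mean over the 3 probe sets it was 0.46 (adjusted p = 0.00589).

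**Figure D3:**
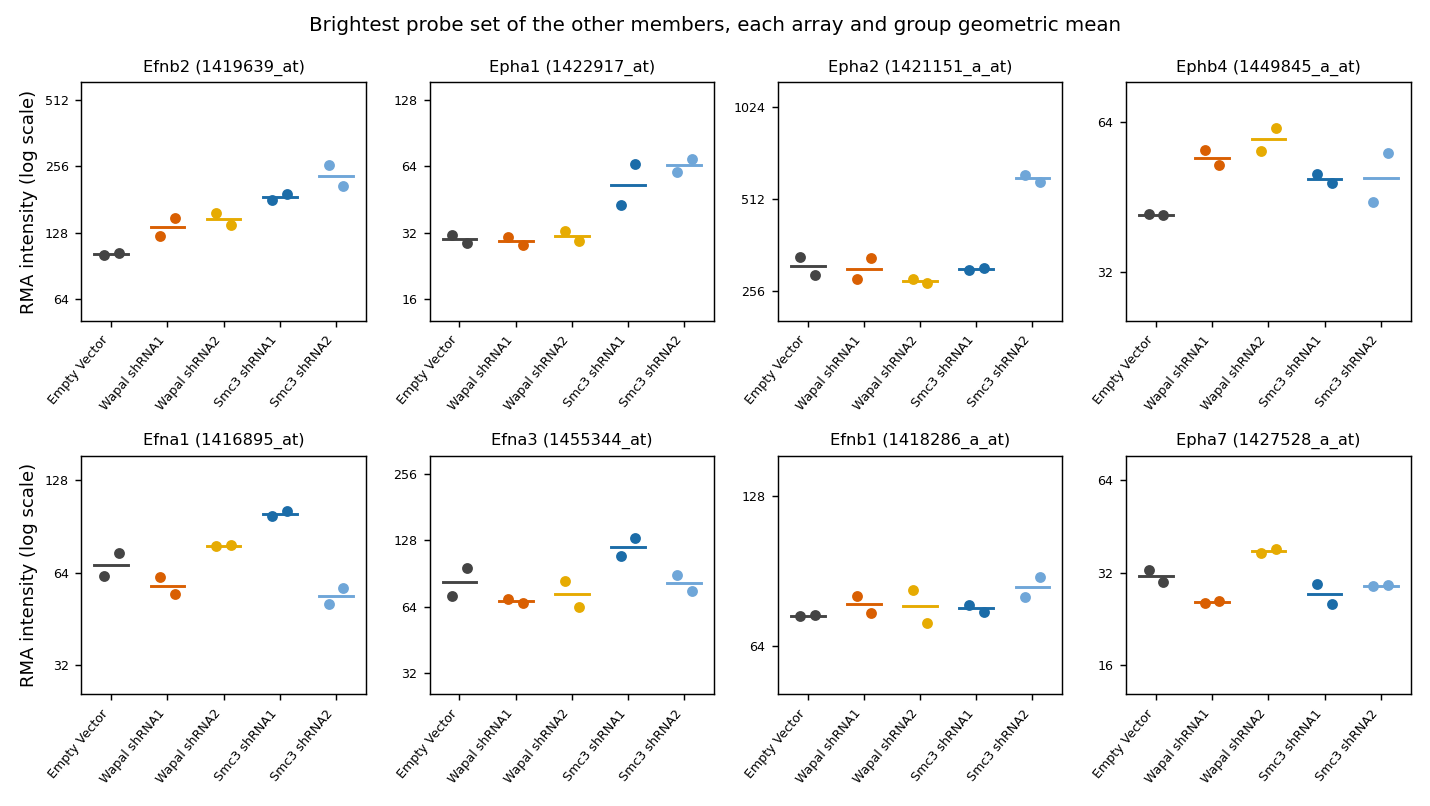
RMA intensity (y axis, log scale, different range in each panel) of the brightest probe set of the 8 other genes in the 5 groups (x axis); points are the 2 arrays of a group and lines their geometric mean. Efnb2 climbs from 102 and 103 in empty vector to 258 at the most, Epha2 is high only on the 2 Smc3 shRNA2 arrays, and Efna1 is highest with Smc3 shRNA1.

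Epha2, a receptor for A-type ephrins found in early embryos and epithelia, rose with 1 of the 4 hairpins. Its single probe set, 1421151_a_at, read 331 and 290 in empty vector, 272 to 329 on the 4 Wapal arrays, 299 and 304 for Smc3 shRNA1, and 613 and 582 for Smc3 shRNA2. Smc3 shRNA2 stood clear of the other 8 arrays, and Smc3 shRNA1 lay within the empty vector range. The change was 0.95 ± 0.11 with Smc3 shRNA2 (adjusted p = 0.00256) and -0.04 ± 0.11 with Smc3 shRNA1 (adjusted p = 0.891), and the hairpins differed by -0.99 ± 0.11 (shRNA1 minus shRNA2, adjusted p = 0.00226). Their mean, 0.45 ± 0.10 (adjusted p = 0.0257), therefore describes neither hairpin, and it lost its call in 5 of the 6 fits that left out 1 array and once the side of each array entered the model (adjusted p = 0.155). That model took both Smc3 hairpins as 1 group, so it could not tell their difference from one between sides. On the side of Smc3 shRNA2 the empty vector array was also the higher, 331 against 290. Within the sides Epha2 changed by 0.85 with Smc3 shRNA2 and by 0.06 with Smc3 shRNA1. The log2 difference between Wapal and Smc3 depletion, -0.55 ± 0.08 (adjusted p = 0.00108), rests on the same 2 arrays.

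Ephb4, the B-type receptor best known as the partner of ephrin-B2 in venous endothelium, was dim, and 1449845_a_at read 41.9 and 41.6 in empty vector, 56.3 and 52.4 for Wapal shRNA1, 56.0 and 62.3 for Wapal shRNA2, 50.2 and 48.4 for Smc3 shRNA1, and 44.2 and 55.4 for Smc3 shRNA2. All 8 shRNA arrays lay above the empty vector pair, and the Wapal and Smc3 arrays overlapped. Wapal depletion raised it by 0.44 ± 0.10, or 1.36-fold (adjusted p = 0.0383), a call lost when any 1 array was left out (adjusted p from 0.0823 to 0.121). Smc3 depletion changed it by 0.24 ± 0.11, which did not pass (adjusted p = 0.253), and the difference between the depletions, 0.20 with a 95% interval of 0.01 to 0.39, did not pass after adjustment (adjusted p = 0.142). Epha7, the remaining A-type receptor, was dim on all 4 probe sets. Its brightest, 1427528_a_at, changed by -0.01 with Wapal and -0.15 with Smc3 depletion, neither passing. The Wapal mean joins a change of -0.28 with shRNA1 and one of 0.27 with shRNA2, neither passing (adjusted p = 0.176 and 0.186). Within the sides of the array split these were -0.35 and 0.33.

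Among the A-type ephrins, Efna1 moved in opposite directions with the Smc3 hairpins. Probe set 1416895_at read 62.1 and 74.0 in empty vector, 61.8 and 54.5 for Wapal shRNA1, 78.0 and 78.8 for Wapal shRNA2, 97.7 and 101 for Smc3 shRNA1, and 50.7 and 57.1 for Smc3 shRNA2. Smc3 shRNA1 lay above every other array, and Smc3 shRNA2 lay below both empty vector arrays. Smc3 shRNA1 raised Efna1 by 0.55 ± 0.12 (adjusted p = 0.0299), while the change of -0.33 ± 0.12 with Smc3 shRNA2 did not pass (adjusted p = 0.158). Their difference was 0.89 ± 0.12 (adjusted p = 0.00471), and 0.87 (adjusted p = 0.00660) on the second probe set, 1448510_at, which was dim. Without Smc3 shRNA2 replicate 1 the difference on the brightest probe set no longer passed (adjusted p = 0.0573).

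This difference runs along the split of the arrays. On the brightest probe set, Efna1 was also higher on the same side in empty vector, where replicate 2 exceeded replicate 1 by 0.25. With Wapal, shRNA1 minus shRNA2 was -0.43 there (adjusted p = 0.146). On 1448510_at the empty vector gap was 0.17, and the Wapal hairpins differed by just -0.08 (adjusted p = 0.802). Set against the empty vector array of its own side on the brightest probe set, Smc3 shRNA1 was 0.43 higher and Smc3 shRNA2 was at -0.21. A difference between hairpins and one between sides cannot be told apart here. Averaged over hairpins, Efna1 changed by -0.01 with Wapal and 0.11 with Smc3 depletion, neither passing.

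Efna3 lies 32.95 kb from Efna1 on chromosome 3 (89313899 to 89322939 and 89271730 to 89280951 on GRCm38.p6), and Efna4 starts 10.45 kb beyond it. Probe set 1455344_at of Efna3 read 71.4 and 95.7 in empty vector, 69.1 and 66.7 for Wapal shRNA1, 83.2 and 63.5 for Wapal shRNA2, 108 and 131 for Smc3 shRNA1, and 88.5 and 74.9 for Smc3 shRNA2. The empty vector replicates alone differed by 0.42 in log2, and neither depletion passed against them (-0.23 with Wapal, 0.25 with Smc3). The depletions differed from each other by -0.49 ± 0.12 (adjusted p = 0.0201), a call that 4 of 10 fits without 1 array lost. On the second Efna3 probe set, 1431170_at, which was not dim either, the depletions differed by -0.28 and did not pass (adjusted p = 0.0676). The log2 difference between the Smc3 hairpins was 0.55 for Efna3 (adjusted p = 0.0812) and 0.20 for Efna4 (adjusted p = 0.350), beside 0.89 for Efna1. For Efna3 too this difference has the sign of the empty vector gap, and within the sides Efna3 changed by 0.31 with Smc3 shRNA1 and by 0.19 with Smc3 shRNA2. Efnb1, the X-linked B-type ephrin, read 71.1 to 88.0 over the 10 arrays on 1418286_a_at and changed by 0.07 with Wapal and 0.12 with Smc3 depletion, neither passing.

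Set directly against each other, the depletions differed in 5 of the 9 genes on the brightest probe set. Epha4 was higher with Wapal depletion, and Epha1, Epha2, Efna3 and Efnb2 were lower, in a comparison where 7.66% of all genes were higher and 14.8% lower. Between the Wapal hairpins none of the 9 genes passed in limma, where 0.434% of all genes were higher and 1.02% lower with shRNA1, and 2 had an unadjusted p under 0.05 (Epha7, -0.55, adjusted p = 0.0567, and Efna1). Between the Smc3 hairpins Efna1 was higher and Epha2 lower with shRNA1, where 7.87% of all genes were higher and 4.63% lower.

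The other 12 receptors and ephrins gave no call in any of the 9 comparisons by limma. In the comparison with the most calls, Wapal against Smc3 depletion, 7.66% of all genes were higher and 14.8% lower. Against empty vector the changes of the 12 ran from -0.41 (Efna4) to 0.26 (Ephb6) with Wapal depletion and from -0.31 (Efna4) to 0.27 (Ephb6) with Smc3 depletion. In each, 2 had an unadjusted p under 0.05 in limma (1 to 3 in the other comparisons). The share of all genes at that unadjusted threshold was not computed, and nothing is read from these counts or from the lack of calls. In 8 of the 12 the brightest probe set was dim, so a change in those would have been hard to measure. Of the 4 that were not, Efna4 read 151 and 169 in empty vector, 105 to 136 on the 4 Wapal arrays and 113 to 143 on the 4 Smc3 arrays. All 8 shRNA arrays lay below the empty vector pair, but neither change passed (adjusted p = 0.0970 and 0.119). Ephb3 read 300 and 293 in empty vector and 215 to 364 with the shRNAs. Over the complete family, 21 of 22 genes measured, the calls were the 2 rises and 1 fall with Wapal depletion (2.63% and 4.93% of all genes) and the 3 rises and 1 fall with Smc3 depletion (6.08% and 3.94%) given above.

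**Figure D4:**
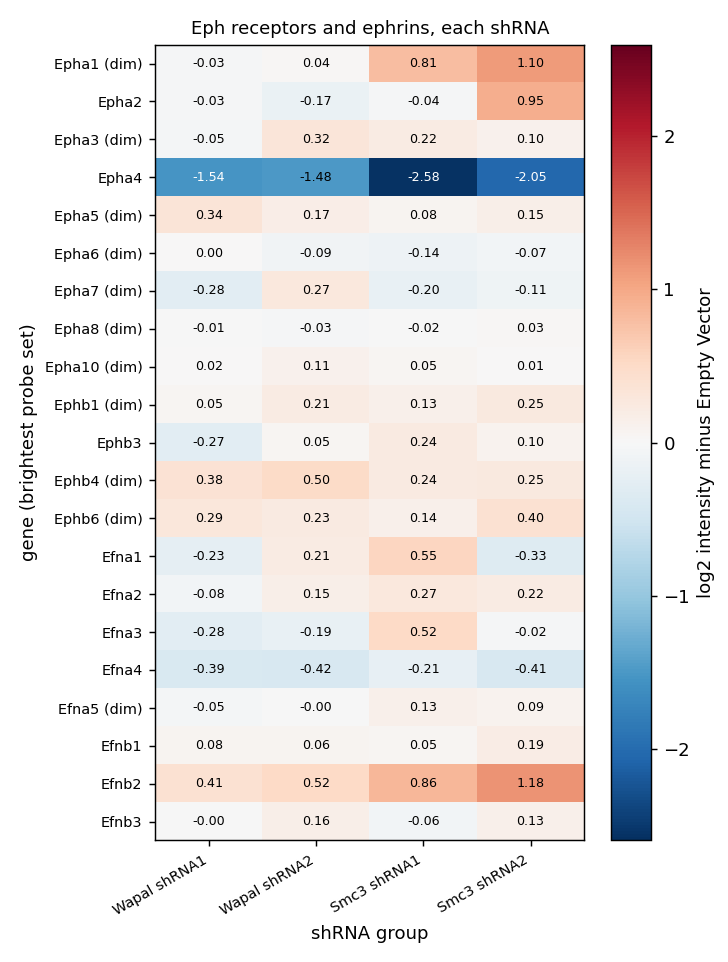
Difference in log2 intensity from empty vector (colour and printed value, 2 arrays against 2) of the brightest probe set of the 21 measured Eph receptors and ephrins (rows) with each of the 4 shRNAs (columns); genes under a mean log2 intensity of 6 are written as dim. Epha4 is the one strongly blue row, Efnb2 is red throughout, and Epha2 and Efna1 differ between the Smc3 columns.

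Of 48 listed genes for effectors, the proteins that carry the signal from Eph receptors and ephrins, transcripts of 44 were measured. With Wapal depletion 3 of the 44 fell and none rose, beside 4.93% and 2.63% of all genes: Tiam1, an exchange factor for Rac (-0.71 ± 0.12, adjusted p = 0.0198), Pick1, a scaffold that binds ephrin-B tails (-0.42), and Ptpn11, the phosphatase Shp2 (-0.39). With Smc3 depletion 3 rose and none fell, beside 6.08% and 3.94% of all genes: Ptpn13, a phosphatase that acts on ephrin-B (1.36 ± 0.14, adjusted p = 0.00146), Kalrn (0.57), and Adam10, the protease that sheds ephrins (0.38). By hairpin, 7 of the 44 effector genes rose with Smc3 shRNA1, beside 1350 of all 18193 genes. With Smc3 shRNA2 1 of the 44 rose, beside 901 of 18193. The median change of the effector genes was -0.02 with Wapal and 0.10 with Smc3 depletion. Between the depletions 3 effector genes were higher and 10 lower with Wapal, beside 7.66% and 14.8% of all genes, among them Ptpn13 (-0.87) and Ptpn11 (-0.56). Nothing particular to the effectors is read from these counts.

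The genes whose log2 levels over the 10 arrays were most like that of Epha4, among 9688 genes that were not dim, were Fubp3 (r = 0.989), Coq7 (r = 0.980), Tmem181a, Penk and Tlr2. For Efnb2 they were Tmem88 (r = 0.978), Ptpn13 (r = 0.968), Ccn2, Ctsw and Ryr3. The points are 10 arrays in 5 groups, which share their group means, and the coefficients are given as a description. With Wapal and Smc3 depletion Penk, which encodes the enkephalin precursor, changed by -0.85 and -1.13, and Ccn2, a matricellular protein and target of YAP, by 0.63 and 1.00.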

How the data were processed

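Total RNA of 10 ESC samples in 5 groups was hybridised to Affymetrix mouse genome arrays. The deposited intensities are the authors' RMA values (background correction, normalization between arrays and 1 summary per probe set) on a linear scale. The RMA version is not given in the sources used here. Control probe sets (64 of 45101) were left out, and log2 intensities of the other 45037 were analysed in R 4.3.3 with limma 3.58.1 (lmFit and eBayes, 1 mean per group, two-sided), with Benjamini-Hochberg adjustment over all probe sets and a threshold of 0.05. Each depletion was fitted on 6 arrays, and Wapal against Smc3 depletion on 10. Symbols came from GEO's platform annotation: 34945 probe sets had 1 symbol, 932 several and 9160 none. The probe set with the highest mean log2 stood for a gene. Genes named were all 10 members, the other family genes, listed effectors and guidance genes that passed (at most 10 a list), and the 5 genes most alike to Epha4 and Efnb2. The members and lists were chosen with earlier results of these data known. The fits were tested on simulated data. Alternatives were another normalization, an offset of 16, an intensity trend, no dim probe sets, the mean over probe sets, all arrays in 1 model, a replicate block, the side of the array, the methods' t-test, exchanged array names and leaving out each array. The fit with the side of the array took both hairpins to a gene as 1 group. Only 2 arrays per group limit the precision. Promoter windows covered 250 bases.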

Additional observations from a re-analysis of the deposited data

Results flagged for a closer look

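Levels of 5 of the genes differed between the 2 depletions on the brightest probe set. Only Epha4 and Efnb2 of them passed against empty vector in both depletions. Epha1 and Epha2 passed with Smc3 depletion alone, Epha2 through shRNA2, and Efna3 passed in neither. On the log2 scale, Wapal minus Smc3 depletion was 0.80 for Epha4, -0.95 for Epha1, -0.56 for Efnb2, -0.55 for Epha2 and -0.49 for Efna3, each past the threshold of limma's test of the difference itself. The 2 Smc3 hairpins also differed from each other, with shRNA1 minus shRNA2 at -0.99 for Epha2 and 0.89 for Efna1. Both values run along the split of the arrays. On the same probe sets, empty vector replicate 2 minus replicate 1 was -0.19 for Epha2 and 0.25 for Efna1, each with the sign of the hairpin value. The part of the split in either value was not tested.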

How the results depend on the processing

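Epha4 kept its fall in both depletions under every alternative run, from -1.74 to -1.21 with Wapal and from -2.54 to -1.69 with Smc3 depletion, and kept its call in all of them except the methods' t-test after Benjamini-Hochberg (adjusted p = 0.126 and 0.130). The count of genes past the threshold was less stable. With Wapal depletion the 3 became 2 with median centring, without dim probe sets or as the mean over probe sets, 1 with the replicate block, 1 with exchanged array names, 0 with the methods' t-test after Benjamini-Hochberg, and 1 without any 1 array. With Smc3 depletion the 4 became 0 with that test and 2 to 4 without 1 array, 2 being without Smc3 shRNA2 replicate 2. Between depletions the 5 became 1 with that test and 4 to 5 without 1 array. Between the Wapal hairpins the 0 became 1 with the offset, with the intensity trend or with all 10 arrays in 1 model, 2 by the methods' t-test at its unadjusted threshold, and 0 to 1 without 1 array. Between the Smc3 hairpins the 2 became 4 with the trend, 0 with the methods' t-test after Benjamini-Hochberg and 1 to 4 without 1 array, 1 being without Smc3 shRNA2 replicate 1 and 4 without either empty vector array. The cause was not tested. Over all probe sets the methods' t-test passed 7056 unadjusted and 3 adjusted with Wapal depletion, and 5485 and 0 with Smc3 depletion. Where an array was left out, the lone array of its group was taken to vary like the others. Same-numbered replicates correlated by -0.156 to 0.0569 in their deviations, so no strong effect shared by number was seen. Whether same-numbered arrays were handled together cannot be told from these values. Efnb2 kept its Wapal call in 7 of 18 alternatives and Ephb4 in 8 of 17. With Smc3 depletion Epha2 kept its call in 9 of 17 alternatives, Epha1 in 14 of 16, and Epha4 and Efnb2 each in 16 of 17. Epha1 is dim and was absent from the fit without dim probe sets. The mean over probe sets took Efnb2 from 0.46 to 0.23 with Wapal and from 1.02 to 0.46 with Smc3 depletion, and Epha1 from 0.96 to 0.46 with Smc3 depletion. Between depletions it took Epha1 from -0.95 to -0.38, Efnb2 from -0.56 to -0.23 and Epha4 from 0.80 to 0.48. The replicate block left Efnb2 at 0.46 with Wapal depletion and ended its call (adjusted p = 0.0681), as it did for Ephb4 (adjusted p = 0.0571). Signs turned 16 times, in no value that had passed. With Wapal depletion Epha1 became -0.0556 with quantile normalization, -0.0309 with median centring and -0.0597 to 0.0653 without 1 array. Epha2 became 0.0125 with quantile normalization. Epha7 became 0.00112 with the offset, 0.0342 as the mean over probe sets and -0.0713 to 0.0578 without 1 array. Efna1 became 0.00977 with quantile normalization and -0.133 to 0.118 without 1 array. Between the Wapal hairpins Efna1 became 0.0843 with exchanged array names. Without 1 array Efna1 ran from -0.0158 to 0.236 with Smc3 depletion, and Efnb1 from -0.107 to 0.00431 between depletions.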

Other observations

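Of 48 listed semaphorin, plexin, neuropilin, Slit, Robo and netrin genes, all measured and 28 of them dim, 3 rose and 3 fell with Wapal depletion, beside 2.63% and 4.93% of all genes, and 4 rose and 2 fell with Smc3 depletion, beside 6.08% and 3.94% of all genes. Ntn1, the secreted guidance cue netrin-1, fell by 1.24 with Wapal and by 0.81 with Smc3 depletion on the log2 scale (adjusted p = 0.00730 and 0.00606). Sema5b was also lower in both, at -0.58 and -0.77. Nrp2, a receptor for class 3 semaphorins, rose by 0.98 and 0.80, and Sema4c by 0.67 and 0.57. Sema3e, a class 3 semaphorin, rose by 1.40 with Smc3 depletion (adjusted p = 0.000246), and Wapal minus Smc3 depletion was -1.14 for it (adjusted p = 3.44e-05). Robo1, a Slit receptor, fell by 0.61 with Wapal depletion (adjusted p = 0.0208), and Plxnb3 rose by 0.39. Slit3 rose by 0.46 with Smc3 depletion. The median change over the list was 0.05 with Wapal and 0.03 with Smc3 depletion, and nothing particular to these families is read from the counts.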
